A study of Mus musculus with 4 samples.

Results

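The genes described here are 8 classical targets of thyroid hormone in liver: Thrsp, Fasn, Acaca, Me1, Cpt1a, Pck1, G6pc and Angptl4. The rule that defines them is their known regulation in liver and uses no measured value, though earlier results of these data were known when they were chosen. A peak was counted for a gene when its summit, the point of highest signal, lay in the RefSeq GRCm38 span of the gene extended by 30 kb on both sides. By that rule 2 of the 8 genes, Fasn and Pck1, had a peak, and 3 of the 7484 peaks of the series fell in the 8 windows. The other 6 genes had none. Of all 21887 protein-coding genes, 32.4% had at least 1 peak by the same rule, so the 25% of the 8 genes was near the background.

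The chromatin came from mouse striatum, the part of the forebrain that is made up mostly of GABAergic neurons. Per the series title, the animals combined a Gad2Cre driver, which is active in GABAergic neurons, with the ThraGS allele, which yields TRα1, the alpha 1 thyroid hormone receptor, with a GS tag. There were 3 immunoprecipitated (IP) fractions, recovered on IgG-coated magnetic beads that hold the tag, and 1 input sample taken without antibody. The age and number of the animals, and whether the IP fractions came from separate animals, are not given in the sources used here. Both groups carry the same alleles as far as the labels say, and chromatin without the tag was not analysed here, so unspecific recovery by the beads cannot be told apart from receptor binding. The peak list gives 1 value per peak and none per fraction, so no spread between fractions and no test between IP and input can be given for any gene.

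Thyroid hormone receptors are nuclear receptors that sit on DNA with and without hormone, mostly as partners of retinoid X receptors. The textbook binding element is a direct repeat of AGGTCA with 4 bases between the copies, called DR4. In liver the hormone raises fatty acid synthesis, fatty acid oxidation, gluconeogenesis and cholesterol turnover together. The liver relies mainly on the beta receptor, while the tagged protein here is the alpha 1 receptor, the main form in brain.

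Promoter sequences of 300 bases, from 250 before to 50 after the annotated start, were taken from RefSeq (GRCm38.p6) and matched 7 of the 8 genes by symbol, with 8 promoters in all. Angptl4 had no entry. None of the 8 promoters was overlapped by a peak. The promoters of Fasn and Pck1 are shown first because these genes had peaks, and those of G6pc and Cpt1a because they hold AGGTCA, in its reverse complement TGACCT, although no peak lay near. Capitals mark that element, and the annotated start is the base after the leading 250.
Fasn promoter, chr11:120824498-120824797, minus strand: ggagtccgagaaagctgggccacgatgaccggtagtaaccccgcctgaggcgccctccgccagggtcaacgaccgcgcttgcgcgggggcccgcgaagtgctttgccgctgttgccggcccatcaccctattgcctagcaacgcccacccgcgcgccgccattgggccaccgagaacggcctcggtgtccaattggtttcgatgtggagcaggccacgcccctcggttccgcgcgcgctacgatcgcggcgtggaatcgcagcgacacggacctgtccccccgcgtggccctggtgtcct
Pck1 promoter, chr2:173152823-173153122, plus strand: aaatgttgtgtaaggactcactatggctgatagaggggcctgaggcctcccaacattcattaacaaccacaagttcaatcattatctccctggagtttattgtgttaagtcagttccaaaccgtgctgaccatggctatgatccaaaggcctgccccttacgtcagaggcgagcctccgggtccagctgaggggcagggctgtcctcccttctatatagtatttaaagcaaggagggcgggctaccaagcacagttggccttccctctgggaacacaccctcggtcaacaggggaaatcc
G6pc promoter, chr11:101367466-101367765, plus strand: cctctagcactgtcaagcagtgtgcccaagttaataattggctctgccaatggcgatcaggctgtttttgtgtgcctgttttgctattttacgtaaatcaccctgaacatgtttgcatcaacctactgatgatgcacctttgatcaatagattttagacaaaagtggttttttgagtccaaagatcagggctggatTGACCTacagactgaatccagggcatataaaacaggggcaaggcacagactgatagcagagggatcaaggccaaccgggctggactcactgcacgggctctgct
Cpt1a promoter, chr19:3323051-3323350, plus strand: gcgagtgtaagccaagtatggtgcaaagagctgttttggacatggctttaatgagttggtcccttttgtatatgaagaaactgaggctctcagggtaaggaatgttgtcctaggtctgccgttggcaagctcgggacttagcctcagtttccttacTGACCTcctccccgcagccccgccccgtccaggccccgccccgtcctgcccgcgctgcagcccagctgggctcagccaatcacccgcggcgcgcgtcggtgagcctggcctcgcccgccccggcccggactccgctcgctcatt

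In the G6pc promoter TGACCT spans bases 197 to 202, and in the Cpt1a promoter bases 157 to 162. The promoters of Fasn, Pck1, Thrsp, Me1 and Acaca held no AGGTCA on either strand. For Acaca, Fasn and Cpt1a the start in the table lies inside the annotated span. The promoter at the outer end of these genes was therefore not searched. AGGTCA occurred on either strand in 5340 of all 32851 promoters of the table, 16.3%, against which 2 of 8 stand. A DR4 with up to 2 mismatches in the 2 copies together (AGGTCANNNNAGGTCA, both strands) was in 3.02% of all promoters and in none of the 8. The E-box CACGTG, searched as a comparison, was in 7.15% of all promoters and also in none of the 8. A missing match says only that these letters are not in this window of 300 bases.

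The pileup and the fold enrichment describe each peak below, and both are the authors' own values for the list as a whole. The pileup is the scaled height of overlapping fragments at the summit. The fold enrichment divides that height by the local background after adding 1 to each. The list had a median fold of 6.91 with quartiles of 5.55 and 9.73, and its shallowest summit held 10 fragments. Enrichment below what the peak caller reported is therefore not in the list, and a gene without a peak is a gene without a listed peak.

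Fasn and Thrsp stand for fatty acid synthesis. Fasn encodes fatty acid synthase, which builds palmitate from malonyl-CoA. Its gene spans chr11:120805958-120825166 on the minus strand, and 1 peak lay inside it at chr11:120822943-120823201. The summit was 1504 bp downstream of the annotated start used for the promoter above and 2123 bp from the upper end of the span. The pileup was 16.9, or 18 fragments, over a background of 2.44, which gives a fold of 5.21. The −log10 q was 5.60, and the peak ranked 6094 of 7484 by fold, with 18.5% of all peaks below it. This was thus a weak peak of the list, though it lay close to the start of the gene. The next gene was Ccdc57, a coiled-coil protein gene, at 3486 bp, and the next summit was 109846 bp away.

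Thrsp encodes Spot 14, a small nuclear protein that promotes lipogenesis and is among the most strongly hormone-induced genes of liver. Its window of 64.6 kb around chr7:97412933-97417550 held no summit. The nearest lay 75.2 kb upstream, inside Ints4, a gene of the Integrator complex that processes small nuclear RNAs, with a fold of 7.85. A total of 3 protein-coding genes were nearer to that summit than Thrsp.

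Acaca and Me1 feed fatty acid synthesis with malonyl-CoA and NADPH. Acaca encodes acetyl-CoA carboxylase 1, the rate-limiting enzyme, and at 272017 bp it is the longest of the 8 genes. No summit lay anywhere in its window of 332 kb at chr11:84099635-84431651. The nearest was 50.8 kb below the gene, 120 bp beyond the far end of Tada2a, a gene of histone acetyltransferase complexes that starts next to Acaca on the other strand. It had a fold of 13.7, a pileup of 38.5 and rank 839. Another, with a fold of 5.87, lay 62.3 kb away inside Dusp14, a phosphatase gene.

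Me1 encodes cytosolic malic enzyme, which yields NADPH. Its window of 174.6 kb around chr9:86581363-86695914 held no summit, but a peak with a fold of 11.4 and a pileup of 31.9 lay 39.1 kb upstream at chr9:86734848-86735136. Of the summits outside a window this was the nearest to its gene. It lay in no gene, 8246 bp from Prss35, a gene of a serine protease family. A second peak upstream, 74.5 kb from Me1, had a fold of 6.21 and lay in Snap91, which encodes a clathrin assembly protein of synapses.

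Cpt1a encodes the liver form of carnitine palmitoyltransferase 1, which admits long-chain fatty acids to mitochondria for oxidation. No summit lay within 100 kb of its span at chr19:3322326-3385735. The nearest was 190.5 kb downstream, with a fold of 5.22, at 5 bp from the tRNA gene n-TAagc9 and 225 bp from Ppp6r3, a phosphatase 6 subunit gene.

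Pck1 and G6pc encode the committing and the final enzyme of gluconeogenesis. Pck1, for cytosolic phosphoenolpyruvate carboxykinase, is short, at chr2:173153073-173159274 on the plus strand, and had a peak on either side of it. The upstream peak, chr2:173141648-173142074, had its summit 11159 bp before the gene, with a pileup of 33.8, or 36 fragments, over a background of 3.00. Its fold was 8.70 and its −log10 q 19.5. The downstream peak, chr2:173173797-173174001, lay 14598 bp beyond the gene with a pileup of 25.35, or 27 fragments, over a background of 2.09. Its fold was 8.53 and its −log10 q 15.3. Both were above the median of the list, at ranks 2386 and 2431, and their summits were 31958 bp apart.

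For the downstream summit Pck1 was the nearest protein-coding gene. The upstream summit was nearer to Gm40011, a predicted protein-coding gene at 3714 bp. It was also 2 bp inside the lower-coordinate end of the non-coding RNA gene Gm36691, and 891 bp below the lower-coordinate end of another, Gm36749. Neither summit lay within the span of Pck1 or on the promoter printed above. Another peak, 70.4 kb downstream with a fold of 5.88, lay outside the window in Pmepa1, which encodes a membrane inhibitor of TGF-beta signalling.

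G6pc, for the catalytic subunit of glucose-6-phosphatase, stood farthest from any peak. The nearest summit was 191.8 kb upstream of chr11:101367716-101377903 with a fold of 7.82, inside Cntnap1, the gene of an axonal adhesion protein of the paranode. A total of 22 protein-coding genes were nearer to that summit than G6pc.

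Angptl4 encodes a secreted inhibitor of lipoprotein lipase. Its window around chr17:33774900-33781575 held no summit. The nearest, 62.0 kb above it, had a fold of 5.22. That summit lay in Cd320, the gene of the receptor for transcobalamin-bound vitamin B12, 461 bp from the lower-coordinate end of Cd320. A stronger peak with a fold of 15.95 lay 109.3 kb away, 205 bp from Kifc1, a kinesin gene.

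**Figure D1:**
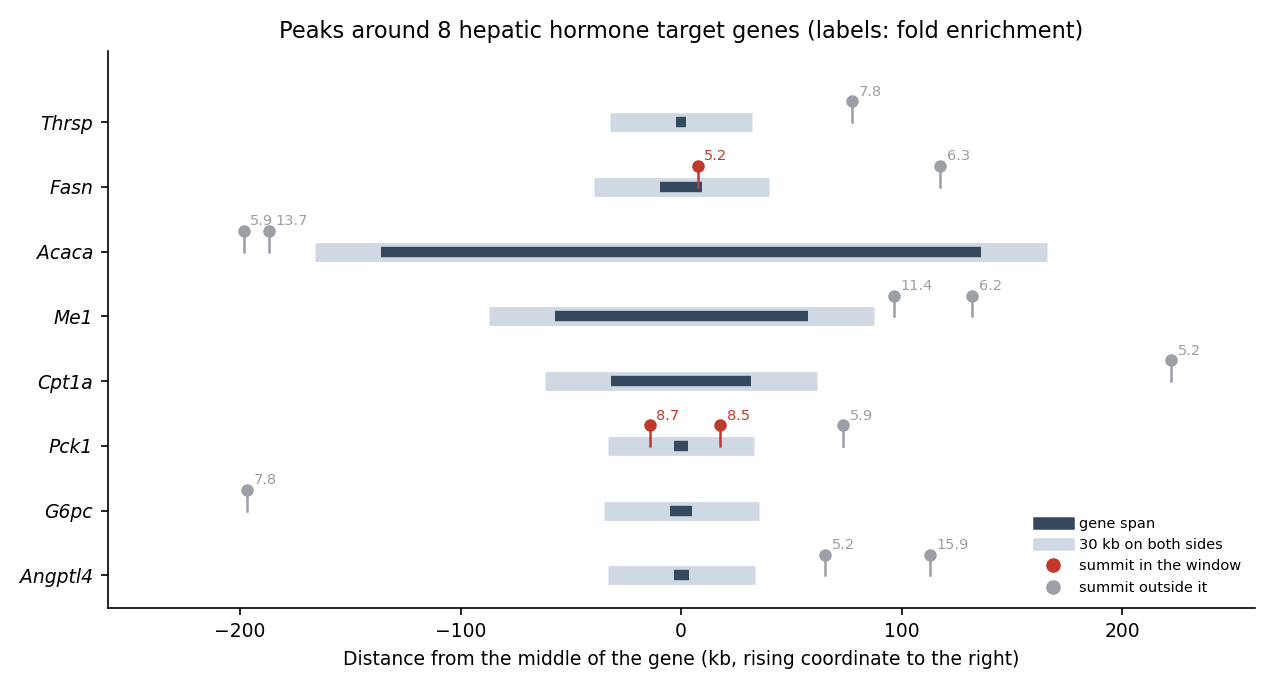
Each row is a gene, with its span in dark blue, the 30 kb on both sides in light blue and distance from the middle of the gene in kb on the x axis. Dots are summits labelled with their fold enrichment, red in the window and grey outside it. Only Fasn and Pck1 carry red dots, at folds of 5.2 for Fasn and of 8.7 and 8.5 for Pck1.

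The map of peaks shows the 3 summits in the windows beside the others within 120 kb, or the nearest where none was that close. Together the 8 windows covered 977 kb with a density of 3.07 peaks per Mb (0.633 to 8.97 as 95% exact Poisson limits, counting error only). The autosomes as a whole had 3.04 per Mb. They include stretches far from genes, so that figure is not the density in windows around other genes. The 3 peaks took up folds from 5.21 to 8.70, and none reached the upper quartile of the list at 9.73. The 2 strongest peaks among those near the 8 genes, with folds of 15.95 near Angptl4 and 13.7 near Acaca, both lay outside the windows and next to another gene.

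**Figure D2:**
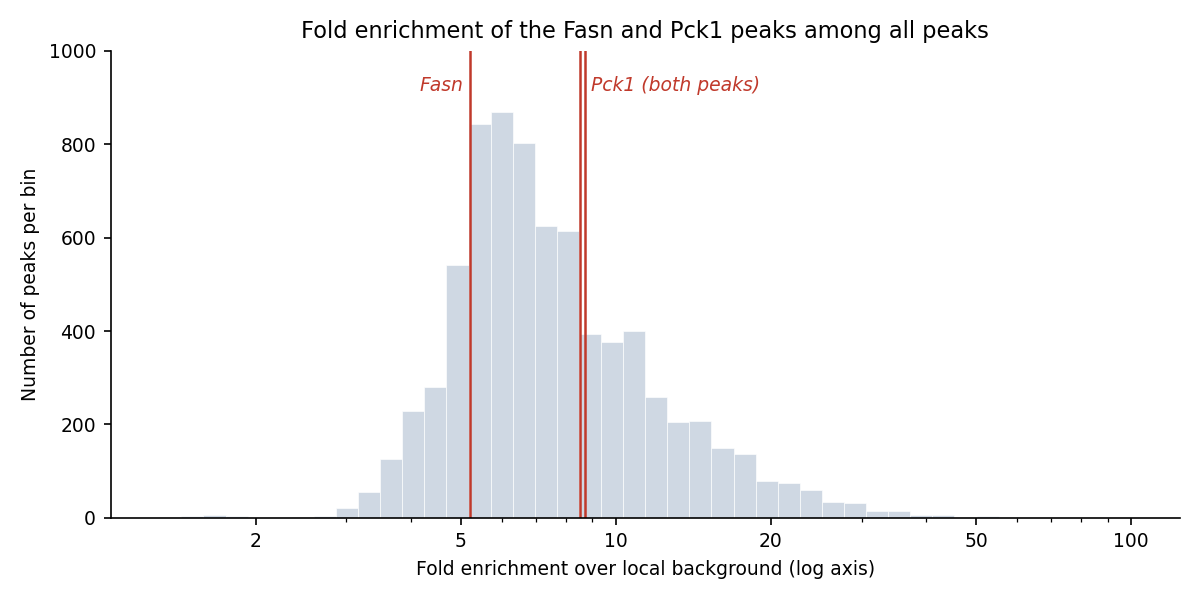
The histogram counts all 7484 peaks by fold enrichment on a log axis, and red lines mark the peak in Fasn and the 2 peaks beside Pck1. The Fasn peak at 5.21 sits on the low side of the distribution, and the Pck1 peaks at 8.53 and 8.70 sit between the median of 6.91 and the upper quartile of 9.73.

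Longer windows hold more peaks, so each gene was set beside protein-coding genes with windows of like length. Fasn, Pck1, G6pc and Angptl4 had windows of 65 to 80 kb, a class in which 31.6% of 6814 genes had a peak, and 2 of these 4 had one. Thrsp, with no peak, was in the class under 65 kb, where 19.3% of 5034 genes had one. Me1, Acaca and Cpt1a, all without a peak, were in the class over 120 kb, where 48.6% of 4162 genes had one. With 3 genes in that class, the absence is a description of these genes.

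Within 100 kb of the span 6 of the 8 genes had a summit, as did 54% of all protein-coding genes. The distance to the nearest summit needs no fixed window. The median over the 8 genes was 56.4 kb, against 82.0 kb over all protein-coding genes, whose quartiles were 15.0 and 262 kb. Fasn had a summit inside it, as did 13.7% of all genes. Pck1 had its nearest summit at 11.2 kb, a distance within which 22.8% of all genes had one. Me1, Acaca, Angptl4 and Thrsp followed at 39.1, 50.8, 62.0 and 75.2 kb, distances within which 36.3% to 48.2% of genes had a summit. Cpt1a and G6pc were farthest, at 190.5 and 191.8 kb, where 68.3% and 68.5% of genes had one.

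**Figure D3:**
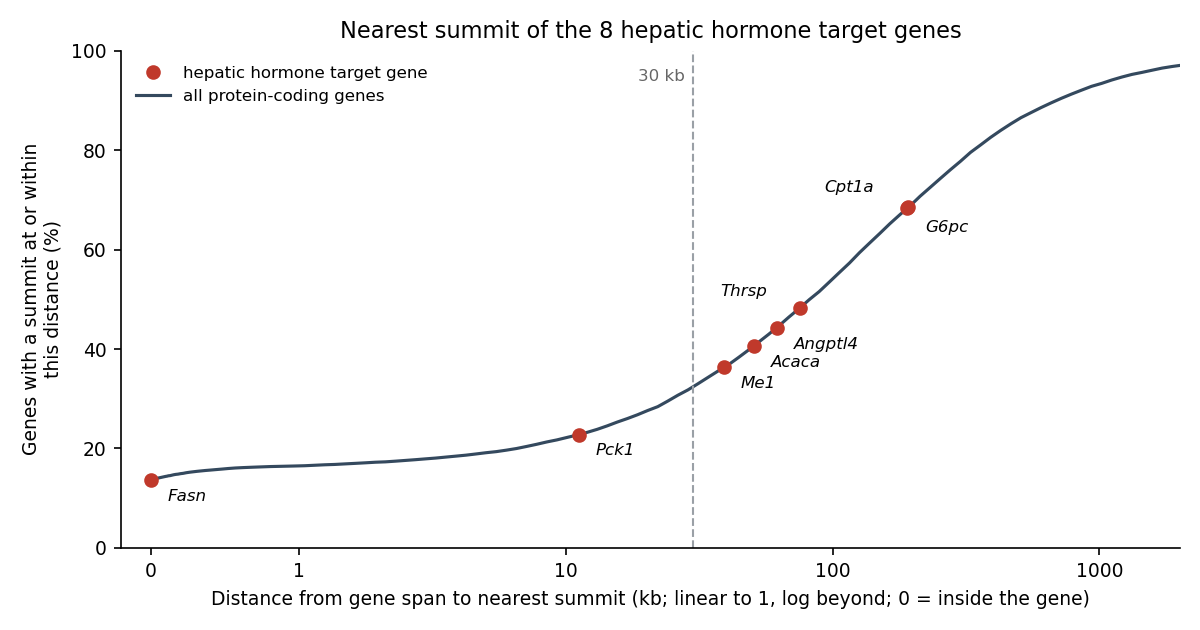
The curve gives the percentage of all protein-coding genes with a summit at or within the distance on the x axis in kb, and red points place the 8 genes on it. Fasn at 0 kb and Pck1 at 11.2 kb lie left of the dashed line at 30 kb, and the other 6 genes spread from 39.1 to 191.8 kb.

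Other genes of the same pathways were counted by the same rule, from 6 lists chosen with earlier results of these data known. Of 92 such genes, 37 had a peak, 40.2%, against 32.4% of all protein-coding genes. Their median window was also longer, 85.0 kb against 77.2 kb. In 12 of the 37 the strongest summit lay inside the gene itself. In another 12 it lay outside the gene and in the span of a different protein-coding gene.

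Among genes of lipogenesis and NADPH supply, 8 of 16 had a peak besides Fasn, 50% (95% exact binomial limits 24.7 to 75.3) against 32.4% of all protein-coding genes. These limits, and those of the lists below, cover counting error only and include that share unless stated. The strongest was at Scd1, a stearoyl-CoA desaturase gene, with 16.8 at 5759 bp outside the gene. Acacb, for the mitochondria-bound acetyl-CoA carboxylase 2, had 15.0 inside it, Scd2, the main brain desaturase gene, had 4 peaks of up to 12.4, and Elovl5, a fatty acid elongase gene, had 10.1. Acacb thus had 2 peaks where its cytosolic counterpart Acaca had none in a window of 332 kb. Srebf1, the gene of the lipogenic regulator SREBP-1, had 3 peaks of up to 6.59, the strongest inside Rai1. Acly, which makes cytosolic acetyl-CoA, and Mlxipl, which encodes the glucose-responsive regulator ChREBP, had none.

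G6pdx, for glucose-6-phosphate dehydrogenase, which like malic enzyme supplies NADPH, was the only gene of the 6 lists with a summit on a promoter of the table, among 96 promoters of 69 genes. The peak, chrX:74428770-74429097, had a fold of 9.12, a pileup of 25.35 over a background of 1.89, and rank 2115. Its summit was 60 bp upstream of the start and also inside Ikbkg, a gene of NF-kappaB signalling that overlaps G6pdx. The promoter is shown because it is the sequence under a peak closest in function to the 8 genes. Capitals mark the summit base, 191, with 10 bases on either side.
G6pdx promoter, chrX:74428831-74429130, minus strand: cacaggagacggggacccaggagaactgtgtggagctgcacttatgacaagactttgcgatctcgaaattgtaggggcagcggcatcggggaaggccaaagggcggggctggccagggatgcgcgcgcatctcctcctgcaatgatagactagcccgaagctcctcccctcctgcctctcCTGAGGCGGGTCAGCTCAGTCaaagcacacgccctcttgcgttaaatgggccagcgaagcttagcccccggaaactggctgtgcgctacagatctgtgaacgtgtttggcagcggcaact
It held no AGGTCA, no CACGTG and no DR4 with up to 2 mismatches.

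In gluconeogenesis and its regulators, 7 of 15 had a peak besides Pck1, 46.7% (21.3 to 73.4) against 32.4%. Crtc2, a CREB coactivator gene of the fasting response, had the strongest at 19.9, 893 bp outside the gene. Ppargc1a, for the coactivator PGC-1α, had 5 peaks of up to 16.9, the strongest inside the gene, and Foxo1, an insulin-regulated transcription factor gene, had 4 of up to 8.37. Slc37a4, for the transporter that delivers glucose-6-phosphate to the G6pc enzyme, had a peak of 7.93 inside it, 152 bp downstream of a start. That peak overlapped 64 bp of a promoter, and a peak of 5.18 at Pcx, the pyruvate carboxylase gene, overlapped 134 bp of another. The stronger peak of Pcx, with a fold of 8.15, lay 17449 bp outside the gene. The isoform genes Pck2 and G6pc2 and the fructose-bisphosphatase genes Fbp1 and Fbp2 had none, and G6pc3 had a peak of 5.65 inside Hdac5.

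Fatty acid oxidation and ketogenesis had peaks at 8 of 19 genes besides Cpt1a, 42.1% (20.3 to 66.5) against 32.4%. Among the other carnitine palmitoyltransferases, Cpt1b, the muscle form, had a peak of 8.23 at 14101 bp outside the gene. Cpt2, of the inner mitochondrial membrane, had 2 peaks, the stronger of 8.65 at 13685 bp outside the gene and inside Czib. Cpt1c, the neuronal form, had none in its window. Acadvl, for very long-chain acyl-CoA dehydrogenase, had 10.8 at 29810 bp, inside Elp5. Pdk4, a pyruvate dehydrogenase kinase gene, had none.

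Lipoprotein lipase and its regulators had peaks at 6 of 12 genes besides Angptl4, 50% (21.1 to 78.9) against 32.4%. Lipg, for endothelial lipase, had 24.8 at 10076 bp, and Lpl, the lipase gene itself, had 3 peaks of up to 7.50. Apoc3, for a lipase-inhibiting apolipoprotein, had 6.20 inside Sik3. Angptl8, a lipase inhibitor gene related to Angptl4, had none.

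Cholesterol and bile acid targets had peaks at 4 of 15 genes, 26.7% (7.79 to 55.1) against 32.4%. Scarb1, the HDL receptor gene, had 12.7 at 22945 bp, and Srebf2, of the sterol regulator SREBP-2, had 5 peaks of up to 12.2. Apoa1 shared the peak of 6.20 in Sik3 with Apoc3. Cyp7a1, the rate-limiting enzyme gene of bile acid synthesis, had none.

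Other hormone-responsive liver genes had peaks at 4 of 15, again 26.7% (7.79 to 55.1) against 32.4%. Thrb, the beta receptor gene, had 3 peaks of up to 12.5 and Rcan2, a calcineurin regulator gene, had 11.4 inside it. Igfbp1, of an insulin-like growth factor binding protein, had 7.06 and Dio1, the deiodinase gene used as a marker of hormone action in liver, had 6.20 inside Hspb11. Ttr, for the hormone carrier transthyretin, and Fgf21, for a fasting hormone, had none.

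The tissue label was set beside marker genes of both tissues, bearing in mind that a peak is not a measure of expression. Both marker lists were written with earlier results of these data known, so their counts and limits are a description and not a test. Striatal projection neuron markers had peaks at 11 of 15, 73.3% (44.9 to 92.2), against 32.4% of all protein-coding genes, a share below these limits. The folds ran from 36.1 at Rgs9, 29.6 at Pde10a, 19.2 at Drd2 and 18.8 at Gad2 down to 6.79 at Drd1 and 5.22 at Gad1. Adora2a, Pdyn, Penk and Tac1 had no peak. Hepatocyte markers had peaks at 2 of 12, 16.7% (2.09 to 48.4) against 32.4%, namely Cyp2e1 at 7.50 in the neighbouring gene Syce1 and Apoa1 at 6.20 in Sik3. Alb, the albumin gene, and Hnf4a, a hepatocyte transcription factor gene, were among those with none. The median window was 100.7 kb for the striatal markers, 70.2 kb for the hepatocyte markers and 77.2 kb for all protein-coding genes, and the part of window length in these counts was not tested. RNA levels of the 8 genes in these striata were not analysed here.

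**Figure D4:**
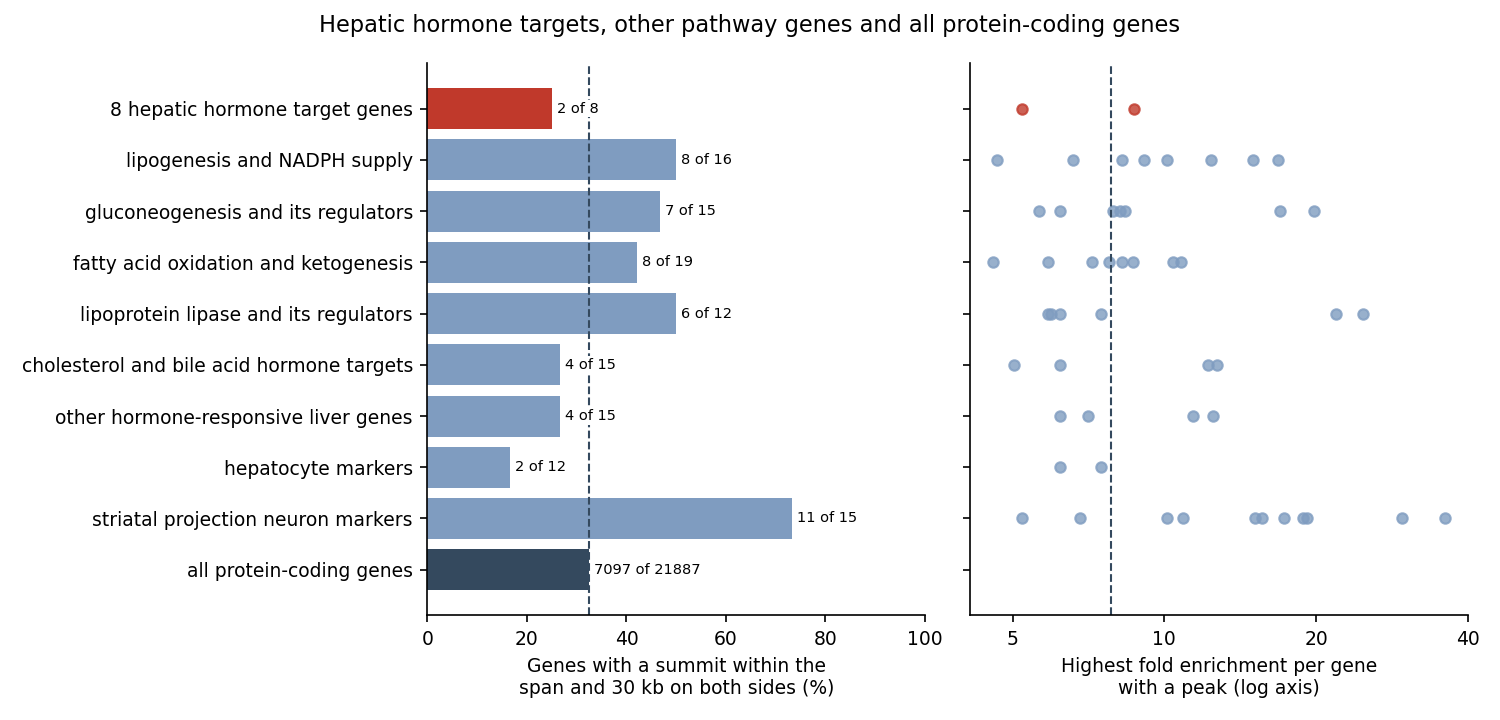
The left panel gives the percentage of genes with a summit in the span and 30 kb on both sides, for the 8 genes, 8 lists without them and all protein-coding genes, whose 32.4% is the dashed line. The right panel gives the highest fold enrichment of each gene with a peak on a log axis, with the median over all such protein-coding genes, 7.82, dashed. The 8 genes reach 2 of 8 with folds of 5.21 and 8.70.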

How the data were processed

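One peak list for the series was used, with 4 libraries behind it (3 IP fractions and 1 input). The submitters' processing notes name Bowtie2 2.3.4.2, MACS2 2.1.1.20160309.0 and, as builds, GRCm38 and mm10, with no role or settings. The sources used here do not say whether the IP fractions were pooled for calling, nor their read totals. The authors deposited for each peak a pileup signal at the summit, a fold enrichment (a linear ratio to local background) and −log10 of a p-value and a q-value, per the file headers.

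Pileups lay on a grid of step 0.939, which gave fragments per summit, with a median of 23. The background was recovered as (pileup + 1) / fold − 1, and for 99.9% of 7483 peaks the deposited −log10 p matched a Poisson p from it to 0.01. Summits were counted per gene from a RefSeq table (GRCm38.p6) in Python 3.11.15 with numpy 2.4.6, pandas 2.3.3 and scipy 1.17.1. The counting was tested on simulated data with 200 planted peaks. All listed symbols matched. No genome sequence was used here, so sequences come from promoters only. Named are the 8 genes, all peaks in their windows, their nearest summits, and up to 4 genes with the highest fold per list. Others, such as genes without a peak, were chosen after their values were seen, and some listed genes are not reported here by name. The genes and lists were chosen with earlier results of these data known, and no test was run on them.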

Additional observations from a re-analysis of the deposited data

How the results depend on the processing

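With the 30 kb window taken from either end only, without the 1% highest pileups and widest peaks, and with any base of the peak counted, the result remained 2 genes (Fasn and Pck1) and 3 peaks. In these settings, in that order, 30.1%, 32.1% and 32.5% of all protein-coding genes had a peak. Counting a peak only for its nearest protein-coding gene left 2 genes and 2 peaks, where 18.7% of all protein-coding genes had one. The gene count was 1, with 1 peak (in Fasn), for windows of 5 kb, 10 kb and the gene span alone, where 19.1%, 22.2% and 13.7% of all protein-coding genes had a peak. It was 1 (Pck1, with 2 peaks) at a −log10 q of at least 10 and above the median fold, where 20.4% and 19.5% of genes had a peak. At 100 kb it was 6 genes with 10 peaks, beside 54% of all genes. Other pathway genes numbered 18 over the gene span and 62 at 100 kb in place of 37, and 25 to 37 otherwise. Of 80 list counts under alternatives, 57 stayed within 1.5 times and 23 moved by more.

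No paired analysis was possible because the list gives no value per library, and leaving out each IP fraction in turn was not run for the same reason.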

Other observations

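Of all 32851 promoters in the RefSeq table, 537 held a summit. A DR4 with up to 2 mismatches was found in 61 of those 537, 11.4%, against 993 of all promoters, 3.02%. The E-box CACGTG was in 71 of the 537, 13.2%, against 7.15% of all. A single AGGTCA was in 93 of the 537, 17.3%, against 16.3% of all. An exact DR4 was in 5 of all promoters and in none of the 537. These shares are descriptions without a test, base composition was not matched, and several promoters can belong to the same gene.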
